A study of Mus musculus with 8 samples.

Results

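The 40 mitosis and G2/M genes described here encode proteins that take a cell from the end of DNA synthesis through chromosome segregation to cytokinesis. They were chosen by name from a list of symbols drawn up with earlier results of these data known, and all 40 were found among the 39179 genes of the count table. All 40 also passed the filter on low counts that left 18345 genes for testing. RNA was sequenced from 5 small intestinal adenomas of VilCreER+ APCfl/+ mice and from small intestine of 3 VilCreER+ mice, called wild type below. Both groups carried the tamoxifen-inducible Cre driven by the villin promoter, which is active in intestinal epithelium, and both had received tamoxifen on an inbred C57BL6/J background. The adenoma mice also carried 1 floxed Apc allele, and the series describes them as aged, without an age for either group. The adenomas were set against whole intestine, so the groups may differ in the layers of tissue sampled as well as in genotype. Nothing in the labels ties each library to a mouse of its own, and the p-values therefore describe the spread between libraries, which may be technical.

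In the cell cycle, the kinase Cdk1 with its cyclin partners drives entry into mitosis, and the spindle checkpoint holds chromosome separation until every kinetochore is attached to microtubules. Cdc20 then turns on the anaphase-promoting complex, a ubiquitin ligase unrelated to the gene Apc, which marks cyclin B and securin for destruction. Transcripts of this group build up late in the cycle, under the MuvB complex with B-Myb and Foxm1, through promoters that hold a cell cycle homology region and CCAAT boxes. In the small intestine, dividing cells lie in the crypts, while the villus enterocytes have left the cycle. In bulk tissue, fewer cells of a type and less RNA per cell cannot be told apart.

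RefSeq promoter windows of GRCm38.p6, 250 bases before to 50 bases after the transcription start, were matched by symbol for 34 of the 40 members. Each window was searched on both strands for TTTGAA (reverse complement TTCAAA), the core letters of the cell cycle homology region, for its variant TTTAAA (its own reverse complement), and for CCAAT (reverse complement ATTGG). None of these letter strings holds another of them. TTTGAA was in the windows of 24 members, 70.6%, against 20.2% of the 27025 genes with a window. CCAAT was in those of 25 members, 73.5%, against 41.1% of all genes. Both were in those of 21 members, 61.8%, against 7.97% of all genes. TTTAAA was in those of 9 members, 26.5%, against 14.9%. TTTGAA began within 50 bases of the start in 22 members, 64.7%, against 5.72% of all genes, a distance chosen after the matches were seen. The G2/M promoter letters were thus common in the windows of the members, and a match is a description of letters, not of a bound site. Ccna2, Foxm1, Aurkb, Incenp, Tpx2 and Kif20a had no window in the table used here.

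The windows of 6 members are printed below in lower case with the matched letters in capitals. Cdk1, Plk1, Bub1b and Ccnb2 are shown as members that were higher in adenomas and hold both TTTGAA and CCAAT. Mki67 is shown because it alone was lower, and Nusap1 because it was higher and its window holds none of the strings. Positions are those of the first base of a match, counted from +1 at the start.
Cdk1, chr10:69352863-69353162, minus strand: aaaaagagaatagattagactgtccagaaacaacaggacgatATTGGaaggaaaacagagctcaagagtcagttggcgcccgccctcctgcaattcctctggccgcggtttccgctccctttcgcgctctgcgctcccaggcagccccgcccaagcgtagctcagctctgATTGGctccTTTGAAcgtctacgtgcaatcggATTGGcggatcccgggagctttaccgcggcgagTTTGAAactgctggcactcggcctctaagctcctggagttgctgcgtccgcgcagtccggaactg
Plk1, chr7:122159185-122159484, plus strand: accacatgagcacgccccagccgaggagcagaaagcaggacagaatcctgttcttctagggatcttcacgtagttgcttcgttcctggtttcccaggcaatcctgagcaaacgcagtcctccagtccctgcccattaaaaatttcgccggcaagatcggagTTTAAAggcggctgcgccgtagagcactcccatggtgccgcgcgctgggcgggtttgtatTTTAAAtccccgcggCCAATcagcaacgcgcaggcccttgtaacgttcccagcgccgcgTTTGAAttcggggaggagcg
Bub1b, chr2:118597961-118598260, plus strand: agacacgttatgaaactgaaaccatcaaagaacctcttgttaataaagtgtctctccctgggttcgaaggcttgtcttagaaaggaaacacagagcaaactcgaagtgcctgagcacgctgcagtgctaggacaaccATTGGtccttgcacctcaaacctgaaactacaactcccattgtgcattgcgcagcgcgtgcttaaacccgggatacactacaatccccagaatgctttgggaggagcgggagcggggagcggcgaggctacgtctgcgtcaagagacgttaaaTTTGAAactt
Ccnb2, chr9:70421505-70421804, minus strand: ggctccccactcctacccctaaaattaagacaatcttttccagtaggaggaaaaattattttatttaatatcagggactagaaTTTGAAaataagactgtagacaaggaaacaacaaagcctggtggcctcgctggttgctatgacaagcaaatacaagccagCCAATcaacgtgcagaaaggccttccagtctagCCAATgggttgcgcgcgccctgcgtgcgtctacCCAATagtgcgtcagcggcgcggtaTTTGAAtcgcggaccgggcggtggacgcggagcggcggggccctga
Mki67, chr7:135716330-135716629, minus strand: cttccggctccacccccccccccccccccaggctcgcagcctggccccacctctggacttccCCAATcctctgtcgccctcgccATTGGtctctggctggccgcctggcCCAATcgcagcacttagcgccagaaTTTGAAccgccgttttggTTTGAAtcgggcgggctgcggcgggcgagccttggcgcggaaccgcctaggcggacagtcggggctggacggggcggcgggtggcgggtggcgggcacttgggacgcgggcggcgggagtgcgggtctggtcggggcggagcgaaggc
Nusap1, chr2:119618048-119618347, plus strand: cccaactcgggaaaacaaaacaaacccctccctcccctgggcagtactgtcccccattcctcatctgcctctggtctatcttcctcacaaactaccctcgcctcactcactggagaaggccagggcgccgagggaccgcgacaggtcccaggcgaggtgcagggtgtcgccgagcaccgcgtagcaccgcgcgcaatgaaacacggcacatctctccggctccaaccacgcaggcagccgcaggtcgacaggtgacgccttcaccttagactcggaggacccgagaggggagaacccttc
In Cdk1, TTTGAA lies at -71 and -15, and ATTGG at -208, -80 and -48. In Plk1, TTTGAA lies at 31, CCAAT at -14, and TTTAAA at -89 and -29. Bub1b has ATTGG at -113 and TTTGAA at 41, and Ccnb2 has CCAAT at -87, -54 and -21 with TTTGAA at -167 and 5. The window of Mki67, the member that was lower, also holds both strings, with TTTGAA at -116 and -98, CCAAT at -188 and -141, and ATTGG at -166. Cdk1, Plk1, Bub1b and Ccnb2 each have a match nearer to the RefSeq start than -98, but Cdk1 and Ccnb2 also have matches farther out, at -208 and -167. Whether position goes with the call was not tested. Among the 12 members called higher with a window, 10 held TTTGAA and 8 held both strings, and among the 21 not called, 13 held TTTGAA and 12 held both.

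The libraries held 18040301 to 28343915 counted reads, of which 23643 to 57273 fell on the 40 members. No member had fewer than 117 counts in any library. Values are counts per 1000000 (CPM) of library sizes scaled by the trimmed mean of M-values (TMM). Apc itself had 149.5, 153.2, 136.8, 131.7 and 158.7 CPM in adenomas 1 to 5, against 195.8, 190.7 and 211.4 CPM in wild types 1 to 3. Reads of the full gene were counted, and which exons were floxed is not stated. Xist and the Y-linked Ddx3y showed a female pattern in adenomas 2 to 5 and a male one in adenoma 1 and in all 3 wild types. Sex and group can therefore be compared within 1 sex only through adenoma 1. The library labelled adenoma 2 had 0.470 CPM of Gata4, a factor of the proximal small intestine, against 68.4 to 84.4 CPM in the other adenomas, and it had 245.5 CPM of Hoxb13, a hindgut Hox gene, against at most 0.89 CPM. Its 10 enterocyte markers summed to 106.7 CPM, against 6899 to 13305 CPM in the other adenomas. Exocrine pancreas markers summed to 686.1 CPM in adenoma 5 and 1047 CPM in wild type 1, against 1.04 to 5.40 CPM elsewhere. The 6 B cell markers used here summed to 145.1 CPM in wild type 1, against 9.55 to 14.0 CPM in the other libraries. Genes that collect ribosomal RNA reads took 23.5% of the counts in adenoma 2, the highest share, and 10.7% in wild type 1, the lowest. Wild type 2, at 23.1%, and wild type 3, at 11.4%, lay close to these extremes. These library-marking genes were picked in earlier work after their values were seen.

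Of the 40 members, 14 were higher in adenomas than in wild-type intestine and 1, Mki67, was lower, at an adjusted p under 0.05 in edgeR's quasi-likelihood test with Benjamini-Hochberg adjustment over all 18345 genes. The 14 are 35.0% of the members, beside a background of 30.3% of all genes called higher and 27.8% called lower, 58.1% in either direction. The share called higher lay near that background, and the single lower call was 1 of 40. The 14 log2 fold changes, adenoma over wild type, lay between 0.53 and 0.90, or 1.44-fold to 1.87-fold, and none reached 1. A positive log2 fold change was found for 37 members, beside 9528 of the 18345 genes tested. The median over all 40 of 0.40, against 0.04 over all genes, turned to -0.38 when libraries were scaled to equal counts of 11 pan-epithelial genes. Pan-epithelial scaling moved the median of all genes to -0.68, so that the members lay 0.30 above it, beside 0.35 above it under TMM. The directions given for each role are those under TMM, and under pan-epithelial scaling no member was called higher. The counts of calls given for each role stand beside the same 30.3% and 27.8% of all genes.

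**Figure D1:**
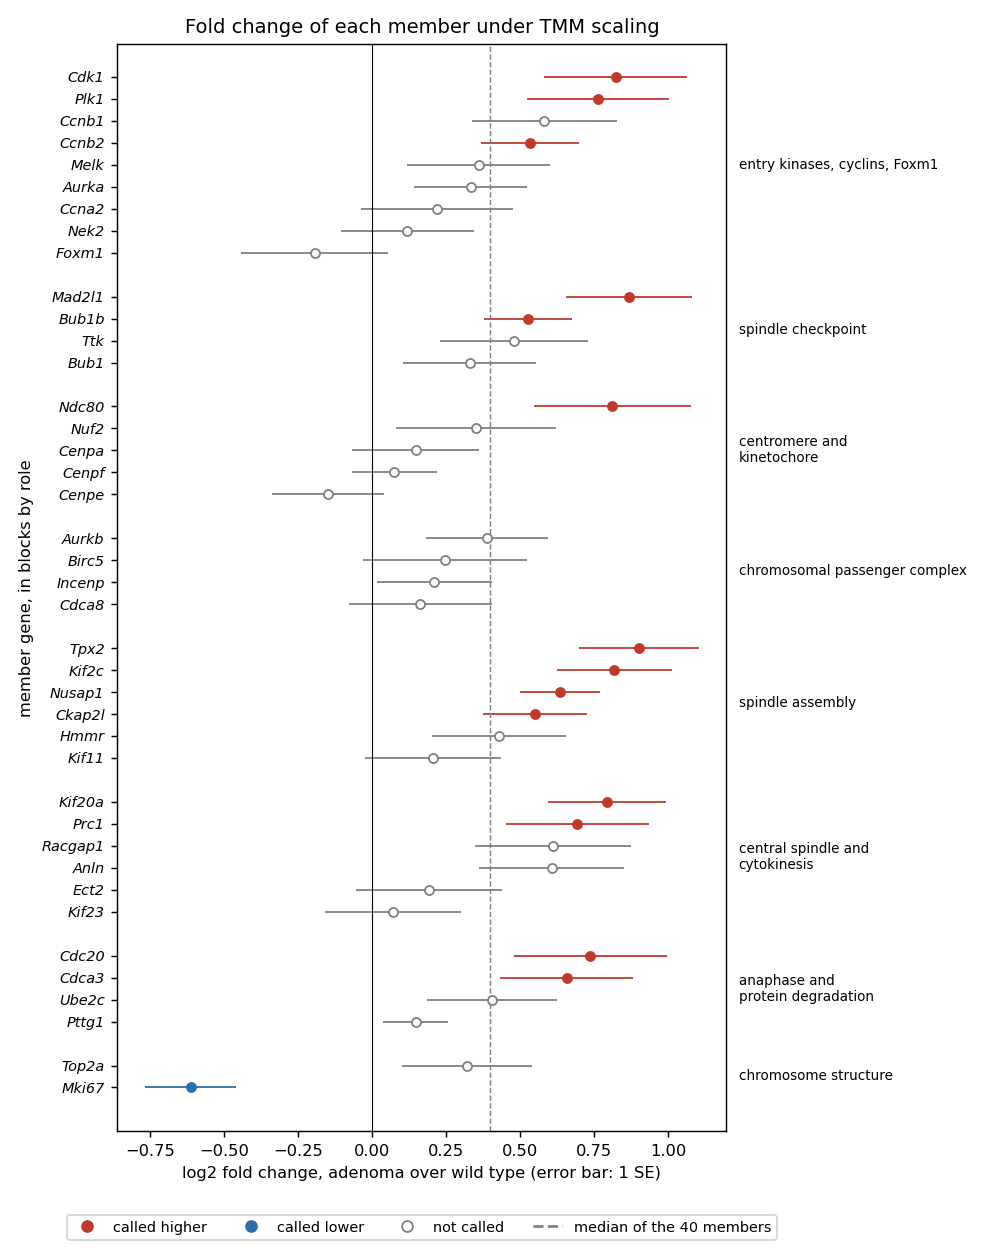
The plot gives the log2 fold change, adenoma over wild type, of each of the 40 members under TMM scaling, in blocks by role, with 1 SE as the bar. Filled red points mark the 14 members called higher, the filled blue point Mki67, and the dashed line the median of 0.40, which turns to -0.38 under pan-epithelial scaling.

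Of the 9 kinases, cyclins and regulators of mitotic entry, 3 were called higher. Cdk1, the kinase of mitotic entry (chromosome 10, 69335146 to 69352938, GRCm38), had 64.5, 36.0, 63.5, 78.4 and 59.7 CPM in adenomas 1 to 5, against 26.5, 39.9 and 36.1 CPM in wild types 1 to 3. In edgeR's fit its log2 fold change was 0.82 ± 0.24 (SE; adjusted p = 0.0177). All adenomas but adenoma 2 lay above the highest wild type. Plk1, the polo-like kinase of centrosome maturation and chromosome attachment, had 40.2, 34.0, 35.5, 46.4 and 42.9 CPM in adenomas 1 to 5, against 13.7, 27.1 and 29.6 CPM in wild types 1 to 3. The groups did not overlap for Plk1, and its log2 fold change was 0.76 ± 0.24 (adjusted p = 0.0228). Ccnb2, a B-type cyclin, had 38.5, 28.5, 39.3, 46.4 and 35.8 CPM in adenomas 1 to 5, against 21.7, 29.9 and 26.5 CPM in wild types 1 to 3. This was a log2 fold change of 0.53 ± 0.17 (adjusted p = 0.0224), with adenoma 2 inside the wild-type range.

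The other 6 entry genes were not called. Ccnb1, the main cyclin partner of Cdk1 at mitotic entry, had 21.2, 13.8, 21.1, 24.0 and 18.8 CPM in adenomas 1 to 5, against 8.45, 17.0 and 14.2 CPM in wild types 1 to 3, and a log2 fold change of 0.58 ± 0.24 (adjusted p = 0.0684). Ccnb1 was called in 2 of the 8 fits that each left out 1 library. The fit without adenoma 2, which called 34% of all genes higher, was among them. Ccna2, the cyclin A of S phase and G2, had 97.4, 52.8, 92.2, 112.9 and 82.9 CPM in adenomas 1 to 5, against 52.2, 89.5 and 84.2 CPM in wild types 1 to 3. The fitted log2 fold change was 0.22 ± 0.26 (adjusted p = 0.482), and the groups overlapped over most of their range. Aurka, the Aurora kinase of the spindle poles, had a log2 fold change of 0.33 ± 0.19. That of Melk, a kinase high in dividing cells, was 0.36 ± 0.24, and that of Nek2, a centrosomal kinase, was 0.12 ± 0.22. Foxm1, the transcription factor of many G2/M genes, had 16.2, 11.1, 15.6, 16.7 and 15.1 CPM in adenomas 1 to 5, against 9.73, 20.1 and 21.4 CPM in wild types 1 to 3. Its log2 fold change was -0.19 ± 0.25 (adjusted p = 0.523), with wild types 2 and 3 above every adenoma and wild type 1 below every one.

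Cdk1 and Ccnb1 stood higher relative to Ccna2 in every adenoma than in any wild type. Cdk1 stood at 0.689 ± 0.021 of the Ccna2 CPM in adenomas (SD, n = 5), between 0.662 and 0.720, against 0.461 ± 0.042 in wild types (n = 3), between 0.428 and 0.508. Ccnb1 stood at 0.213 to 0.261 of Ccna2 in adenomas, against 0.162 to 0.190 in wild types. Adenoma 2 and wild type 1, which were low for most members, lay with their own groups in the first of these ratios, at 0.681 and 0.508. Both ratios were chosen after their values were seen and carry no test. Exons of Ccna2 share 510 bases with Exosc9 on the other strand, and reads from there cannot be told apart when the library is not stranded.

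Of the 4 spindle checkpoint genes, Mad2l1 and Bub1b were higher. Mad2l1, which encodes the Mad2 protein that binds and restrains Cdc20, had 37.1, 24.1, 34.3, 40.7 and 35.3 CPM in adenomas 1 to 5, against 13.4, 23.02 and 19.9 CPM in wild types 1 to 3. Every adenoma lay above every wild type, with adenoma 2 closest, and the log2 fold change was 0.87 ± 0.21 (adjusted p = 0.00763). Bub1b, which encodes the checkpoint protein BubR1, had 57.6, 47.2, 59.7, 63.4 and 53.9 CPM in adenomas 1 to 5, against 31.2, 47.4 and 38.7 CPM in wild types 1 to 3. The log2 fold change was 0.53 ± 0.15 (adjusted p = 0.0144), and adenoma 2 and wild type 2 were nearly level. Ttk, the kinase Mps1 that starts checkpoint signalling, had a log2 fold change of 0.48 ± 0.25 (adjusted p = 0.127), and Bub1, a kinetochore kinase, one of 0.33 ± 0.22 (adjusted p = 0.233).

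Centromere and kinetochore genes held 1 call among 5 and the lowest median of the roles with more than 2 members, 0.15. Ndc80, the microtubule-binding subunit of the outer kinetochore, had 16.3, 8.97, 13.5, 19.5 and 15.7 CPM in adenomas 1 to 5, against 5.96, 10.3 and 9.06 CPM in wild types 1 to 3. This was a log2 fold change of 0.81 ± 0.27 (adjusted p = 0.0272), and adenoma 2 lay below wild types 2 and 3. Nuf2, the partner of Ndc80 in the same complex, had 15.0, 8.55, 16.1, 18.3 and 14.9 CPM in adenomas 1 to 5, against 7.64, 14.7 and 11.95 CPM in wild types 1 to 3. The fitted log2 fold change was 0.35 ± 0.27 (adjusted p = 0.291), and whether the pair differed was not tested. Cenpa, the histone H3 variant of centromeres, had a log2 fold change of 0.15 ± 0.21 and Cenpf, a large kinetochore and nuclear matrix protein, one of 0.08 ± 0.14. Cenpe, the kinesin that aligns chromosomes, had 41.1, 29.8, 38.9, 43.7 and 38.996 CPM in adenomas 1 to 5, against 29.2, 50.2 and 48.6 CPM in wild types 1 to 3, a log2 fold change of -0.15 ± 0.19 (adjusted p = 0.525). Wild types 2 and 3 lay above all adenomas for Cenpe, and wild type 1 below them.

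None of the 4 genes of the chromosomal passenger complex, which corrects faulty attachments and then acts at the cleavage furrow, was called by edgeR, DESeq2 or limma-voom, and 0 of them had an unadjusted p under 0.05 in any of the 3. In edgeR's fit the log2 fold change was 0.39 ± 0.21 for Aurkb, its kinase, 0.21 ± 0.19 for Incenp, its scaffold, 0.16 ± 0.24 for Cdca8, which encodes borealin, and 0.25 ± 0.28 for Birc5, which encodes survivin. Birc5 had 34.6, 16.1, 33.2, 42.3 and 31.0 CPM in adenomas 1 to 5, against 20.9, 30.7 and 27.99 CPM in wild types 1 to 3. The 4 other adenomas lay above every wild type for Birc5, and adenoma 2 below every one. Without adenoma 2, Aurkb and Birc5 were called higher, beside 34% of all genes. For both genes this was the only 1 of the 8 fits leaving out 1 library that called them.

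Spindle assembly had the most calls, 4 of 6, beside 30.3% of all genes called higher. Tpx2, which activates Aurora A and seeds spindle microtubules, had 48.2, 36.2, 48.3, 58.1 and 47.4 CPM in adenomas 1 to 5, against 17.8, 29.7 and 29.0 CPM in wild types 1 to 3. Its log2 fold change of 0.90 ± 0.20 (adjusted p = 0.00500) was the largest of the 40, and the groups did not overlap. Kif2c, the kinesin MCAK that takes microtubule ends apart, had 26.9, 16.6, 23.7, 29.1 and 25.1 CPM in adenomas 1 to 5, against 12.6, 16.6 and 12.1 CPM in wild types 1 to 3. Adenoma 2 was level with wild type 2, the other adenomas were higher, and the log2 fold change was 0.82 ± 0.19 (adjusted p = 0.00653). Nusap1, a spindle microtubule bundler, had 44.4, 34.1, 39.4, 46.0 and 39.1 CPM in adenomas 1 to 5, against 21.9, 29.6 and 27.0 CPM in wild types 1 to 3. Its log2 fold change was 0.63 ± 0.13, with the smallest adjusted p of the members, 0.00390. Ckap2l, a spindle pole protein, had 17.1, 13.6, 14.7, 17.3 and 15.0 CPM in adenomas 1 to 5, against 7.59, 12.9 and 11.4 CPM in wild types 1 to 3. Groups did not overlap for Nusap1 or Ckap2l, and the log2 fold change of Ckap2l was 0.55 ± 0.18 (adjusted p = 0.0251). Hmmr, a spindle pole protein and hyaluronan receptor, had a log2 fold change of 0.43 ± 0.23 (adjusted p = 0.132), and Kif11, the kinesin Eg5 that pushes the poles apart, one of 0.21 ± 0.23 (adjusted p = 0.462). Without adenoma 2, in 1 of the 8 fits that each left out 1 library, all 6 genes of this role were called higher, beside 34% of all genes.

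Genes of the central spindle and cytokinesis had the highest median of the roles, 0.61, which pan-epithelial scaling lowers with the rest, and 2 of 6 were called. Kif20a, the kinesin MKLP2 that brings the passenger complex to the midzone, had 38.6, 28.1, 35.7, 45.6 and 35.5 CPM in adenomas 1 to 5, against 15.3, 25.8 and 22.5 CPM in wild types 1 to 3. Every adenoma lay above every wild type, and the log2 fold change was 0.79 ± 0.20 (adjusted p = 0.00868). Its exons share 1271 bases with Cdc23, on the other strand. Prc1, the crosslinker of midzone microtubules, had 70.2, 41.0, 68.4, 84.8 and 65.1 CPM in adenomas 1 to 5, against 29.6, 49.3 and 43.3 CPM in wild types 1 to 3. The log2 fold change was 0.69 ± 0.24 (adjusted p = 0.0355), adenoma 2 lay inside the wild-type range, and its exons share 911 bases with Rccd1. Anln, the anillin of the contractile ring, and Racgap1, the GTPase regulator of centralspindlin, each had a log2 fold change of 0.61, with SEs of 0.24 and 0.26 and adjusted p of 0.0594 and 0.0755. Kif23, the kinesin partner of Racgap1 in centralspindlin, had 38.4, 24.0, 40.5, 42.8 and 38.5 CPM in adenomas 1 to 5, against 23.7, 41.7 and 39.8 CPM in wild types 1 to 3. This was a log2 fold change of 0.07 ± 0.23 (adjusted p = 0.804), and that of Ect2, a regulator of cytokinesis, was 0.19 ± 0.25 (adjusted p = 0.523).

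Among 4 genes of anaphase and protein degradation, Cdc20 and Cdca3 were higher. Cdc20, the activator of the anaphase-promoting complex, had 54.8, 31.2, 49.3, 63.7 and 45.5 CPM in adenomas 1 to 5, against 20.01, 37.1 and 30.9 CPM in wild types 1 to 3. The fitted log2 fold change was 0.74 ± 0.26 (adjusted p = 0.0367), with adenoma 2 inside the wild-type range. Cdca3, which is needed for the degradation of Wee1 at mitotic entry, had 49.8, 25.9, 50.6, 53.4 and 42.4 CPM in adenomas 1 to 5, against 25.6, 32.1 and 26.7 CPM in wild types 1 to 3. Its log2 fold change was 0.66 ± 0.22 (adjusted p = 0.0321). Adenoma 2 lay between wild types 1 and 3 for Cdca3. Ube2c, the ubiquitin-conjugating enzyme of the complex, had a log2 fold change of 0.41 ± 0.22 (adjusted p = 0.141), and its exons share 592 bases with Tnnc2. Pttg1, the securin that guards separase, varied little among libraries of either group, with 11.8 to 13.8 CPM in adenomas and 10.3 to 12.6 CPM in wild types, a log2 fold change of 0.15 ± 0.11 (adjusted p = 0.277).

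The last role, chromosome structure, held the one member that fell. Mki67 encodes Ki-67, the coat of mitotic chromosomes and the protein stained to count cycling cells, and lies on chromosome 7 from 135689784 to 135716361. It had 224.3, 166.1, 219.5, 223.4 and 221.7 CPM in adenomas 1 to 5, against 253.9, 367.8 and 346.0 CPM in wild types 1 to 3. The log2 fold change was -0.61 ± 0.15 (adjusted p = 0.00861), or 0.654-fold, and every adenoma lay below every wild type. Top2a, the topoisomerase that untangles sister chromatids, had 332.8, 207.8, 348.8, 376.8 and 335.0 CPM in adenomas 1 to 5, against 190.6, 307.8 and 270.5 CPM in wild types 1 to 3. The log2 fold change was 0.32 ± 0.22 (adjusted p = 0.237), and every adenoma but adenoma 2 lay above every wild type. Within a library, the Mki67 CPM stood at 0.674, 0.800, 0.629, 0.593 and 0.662 of the Top2a CPM in adenomas 1 to 5, against 1.33, 1.20 and 1.28 in wild types 1 to 3. The ratio was 0.672 ± 0.078 in adenomas (SD, n = 5) and 1.27 ± 0.069 in wild types (n = 3), was chosen after its values were seen, and carries no test. Mki67 counted 12.5%, 14.1%, 12.2%, 10.7% and 12.9% of the summed CPM of the other 39 members in adenomas 1 to 5, against 26.7%, 24.0% and 24.7% in wild types 1 to 3. This ratio needs no scaling between libraries, and it separated the groups also for adenoma 2 and wild type 1. Of all genes so divided, 27.5% were lower in every adenoma than in every wild type. The ratio carries no test, and scaling to the same sum was added after the data were seen.

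**Figure D2:**
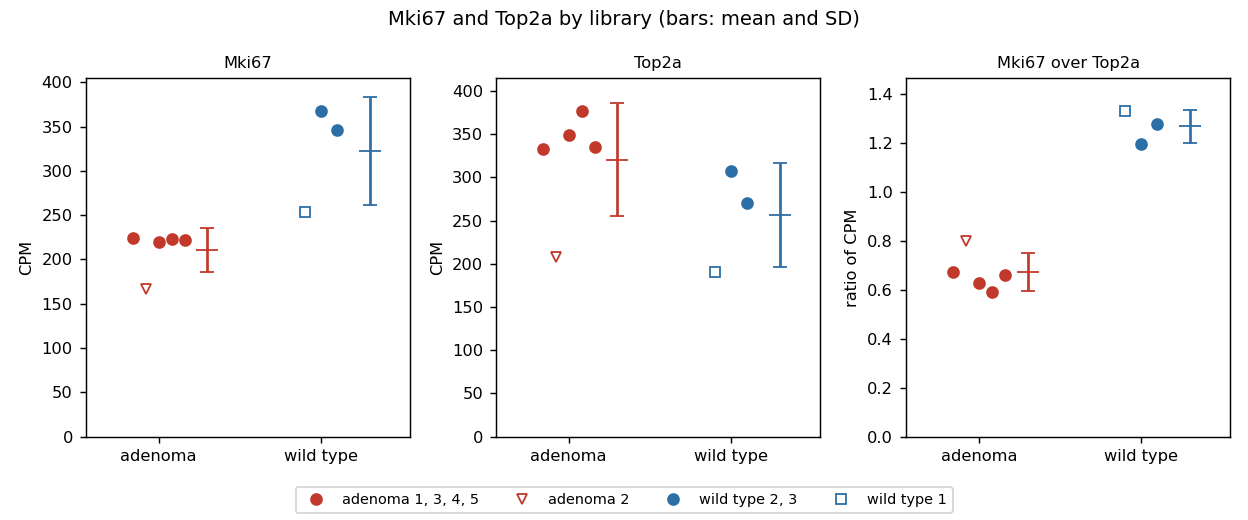
The panels plot the CPM of Mki67, the CPM of Top2a and the ratio of the pair in each adenoma and each wild type, with bars for the group mean and SD (n = 5 and n = 3). Mki67 lies between 166 and 224 CPM in adenomas and between 254 and 368 CPM in wild types, Top2a overlaps between groups, and the ratio lies at 0.593 to 0.800 in adenomas and 1.20 to 1.33 in wild types.

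Levels were also put on a scale of CPM per 1000 bases of merged exon. Merged exons join those of all annotated transcripts of a gene, so the length can exceed that of the transcripts expressed. Ranks between genes on this scale are therefore rough. Top2a had the highest level of the 40 members in adenomas, at 35.5, and Mki67 the highest in wild types, at 32.1. Top2a stood at 28.4 in wild types, and Mki67 at 21.0 in adenomas, where Cdc20 at 26.2, Ccnb2 at 24.6 and Ccna2 at 21.5 were above it. Ndc80 was lowest in both groups, at 2.28 in adenomas and 1.30 in wild types, with a merged length of 6493 bases. Over the 40 members, the log2 fold change and the exon length had a Spearman correlation of -0.241, and over 18110 genes with a length one of -0.0476. The 7 members with at least 8000 bases of exon, Mki67 among them, had a median log2 fold change of 0.32, against 0.41 for the shorter members. Both long and short members include called genes. Over all tested genes with at least 8000 bases of exon the median was -0.22. The part of length in the member values was not tested. Exons of 12 members overlap those of another annotated gene.

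The members were low or high together within a library. The 40 members summed to 2018.7, 1340.8, 2017.3, 2305.6 and 1938.7 CPM in adenomas 1 to 5, against 1203.9, 1900.9 and 1748.7 CPM in wild types 1 to 3. Adenoma 2 was the lowest adenoma for 39 members, the exception being Pttg1, and adenoma 4 the highest for 38. Wild type 1 was the lowest wild type for 38 members, and wild type 2 the highest for 32. Adenoma 2 stood at a median of 0.641 of the mean of the other 4 adenomas, from 0.457 for Birc5 to 0.987 for Pttg1. Wild type 1 stood at a median of 0.63 of the mean of the other wild types, from 0.469 for Foxm1 to 1.12 for Pttg1. So each group held 1 library in which nearly all members were low together. The shares of all genes for which these libraries were lowest or highest are not given here. These counts therefore have no background, and whether the pattern is particular to the members cannot be read from them. The median SD of log2 CPM of the members was 0.31 in adenomas, 0.14 without adenoma 2, and 0.40 in wild types, against 0.26 and 0.18 over all genes in adenomas and wild types.

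**Figure D3:**
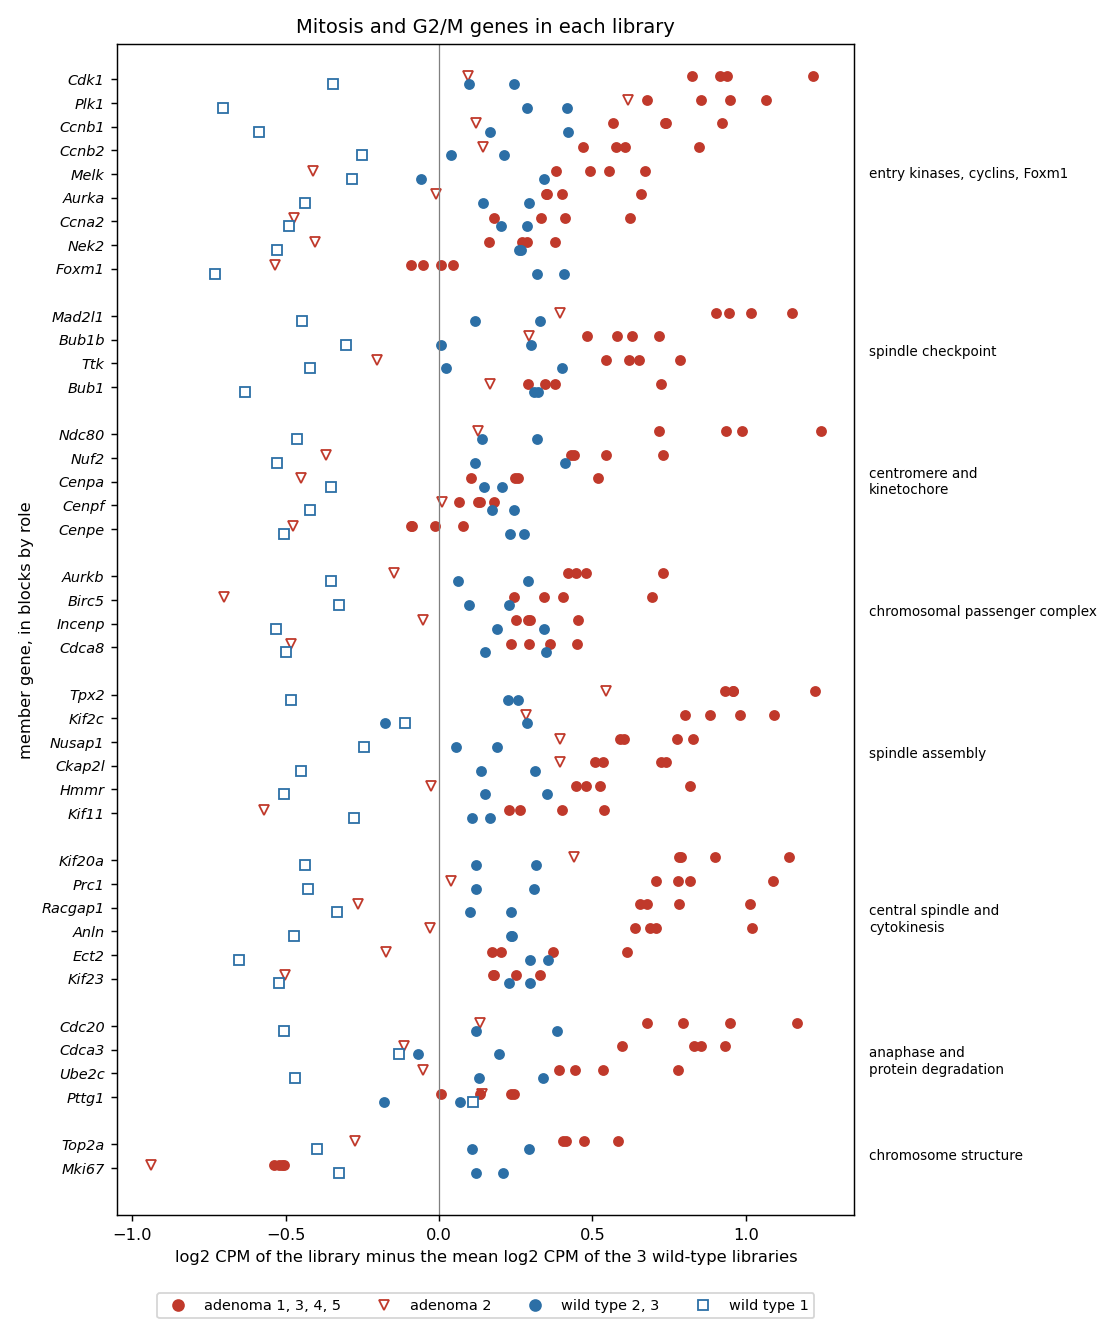
Each point is the log2 CPM of a member in 1 library minus the mean log2 CPM of that member in the 3 wild types, with genes down the page in blocks by role. Adenomas are drawn above wild types in each line, the open triangle is adenoma 2 and the open square wild type 1, which lie left of the other libraries of their group for 39 and 38 of the 40 members.

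With all 8 libraries, 33 members overlapped between the groups. Every adenoma lay above every wild type for 6 members, 15.0%, namely Plk1, Mad2l1, Tpx2, Nusap1, Ckap2l and Kif20a, beside 29.3% of all genes. It lay below for 1, Mki67, beside 27.6% of all genes, and 56.9% of all genes did not overlap in either direction. Adenomas 1, 3, 4 and 5 together lay above every wild type for 27 members, beside 35.1% of all genes, a comparison that leaves out adenoma 2 after seeing its values. Adenoma 2 lay below the lowest wild type for 5 members, Melk, Cenpa, Birc5, Kif11 and Mki67, a count for which no share of all genes is given. Adenoma 1, the one adenoma with the male pattern of the wild types, lay above every wild type for 32 members. A comparison of 1 library carries no test, and the share of all genes for which adenoma 1 lay so was not computed. The count of 32 therefore has no background to be read against.

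The count of members called depended on which libraries were in the fit. Without adenoma 2, 25 members were called higher, beside 34% of all genes, all 14 among them, and the 11 further ones were Ccnb1, Melk, Ttk, Aurkb, Birc5, Kif11, Hmmr, Anln, Racgap1, Ube2c and Top2a. Without wild type 1, 7 were called higher, beside 25.7% of all genes. Without adenoma 2 and wild type 1 together, a fit added after the data were seen, 21 were called higher, beside 33.1%. Leaving out wild type 1 and adenoma 5, the libraries with pancreas markers, left 3, Tpx2, Nusap1 and Kif20a, beside 22.3%. With the sex pattern as a covariate Kif2c and Nusap1 were called, 2 members beside 16.8% of all genes, and Mki67, with a value of -0.52 (adjusted p = 0.172), was not. The members' median log2 fold change was 0.41 with that covariate, beside 0.40 without it, and Cdk1, at 0.92 (adjusted p = 0.0993), was among those not called. Plk1, Bub1b, Mad2l1, Kif2c, Tpx2, Nusap1 and Kif20a kept their call in each of the 8 fits that left out 1 library, as did Mki67. Cdk1 lost its call without wild type 1 (adjusted p = 0.0707). Ccnb2 lost it without wild type 1 or 3, Ckap2l in 4 of the 8 fits, Ndc80 in 5, and Prc1, Cdc20 and Cdca3 in 6 each, with adjusted p of at most 0.123 in these fits.

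**Figure D4:**
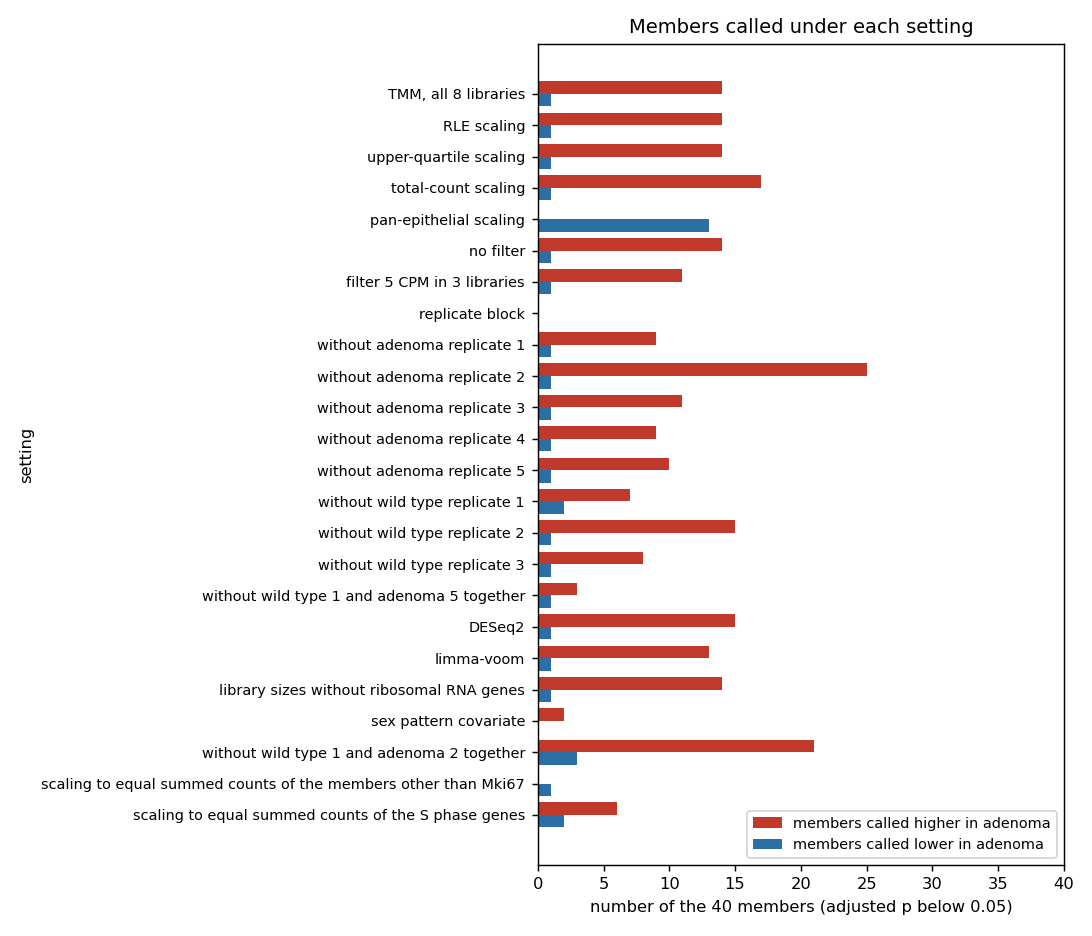
Bars give the number of the 40 members called higher (red) and lower (blue) in adenomas under each setting, from the fit with TMM scaling of all 8 libraries at the top. The count of members called higher is 14 with all libraries, 25 without adenoma 2, 7 without wild type 1 and 0 under pan-epithelial scaling, where 13 are called lower.

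The direction of the group as a whole rested on what the members were measured against. Per 1000 counts of the 11 pan-epithelial genes, the members had 221.9, 227.7, 208.6, 243.3 and 251.3 counts in adenomas 1 to 5, against 236.6, 400.9 and 355.9 in wild types 1 to 3. On that scale adenoma 2 was level with the other adenomas, and wild types 2 and 3 lay above all adenomas. In the fit so scaled, 13 members were called lower, beside 51.5% of all genes, and edgeR called 0 higher, with 0 at an unadjusted p under 0.05. Of the 11 pan-epithelial genes 8 were themselves called higher on the CPM scale and 1 lower, with summed levels of 5888 to 9668 CPM in adenomas and 4741 to 5088 CPM in wild types. Per 100 counts of 28 DNA replication and S phase genes, the members had 158.4, 147.1, 155.3, 163.2 and 160.4 counts in adenomas 1 to 5, against 145.3, 166.3 and 169.6 in wild types 1 to 3. The groups overlapped on that scale, and all 8 libraries lay between 145.3 and 169.6. The sum includes Mki67, which was lower in adenomas. In the fit scaled to the S phase genes, added after the data were seen, the members' median log2 fold change was 0.12, against -0.24 over all genes. That fit called 6 members higher and 2 lower, beside 12.7% of all genes called higher and 42.2% in either direction.

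**Figure D5:**
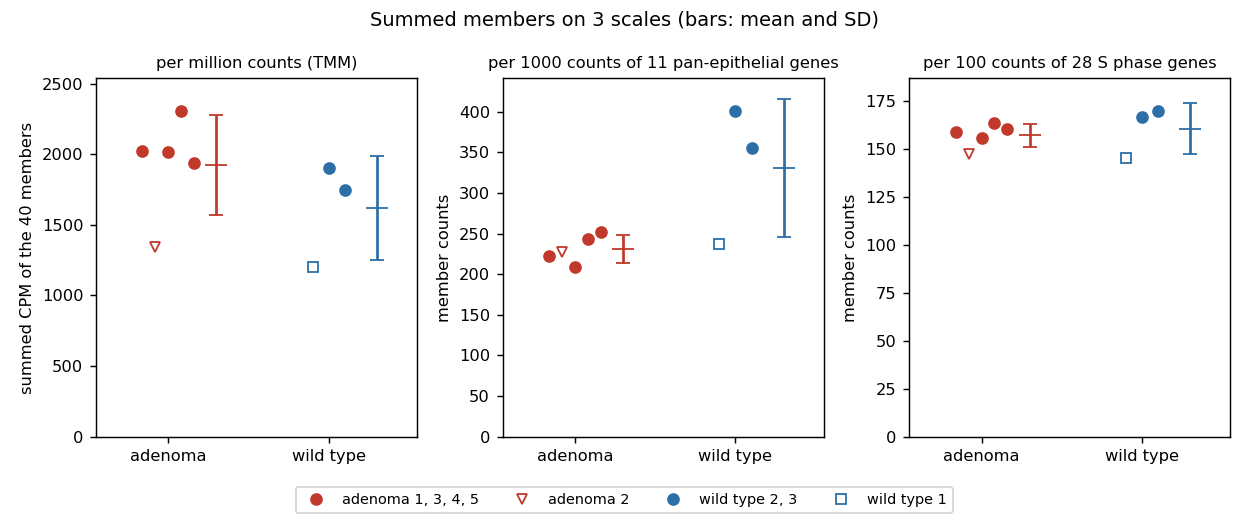
The panels give the 40 members summed in each library as CPM, per 1000 counts of 11 pan-epithelial genes and per 100 counts of 28 S phase genes, with bars for the group mean and SD (n = 5 adenomas, n = 3 wild types). The groups overlap on all 3 scales, adenoma 2 and wild type 1 are low on the first, and wild types 2 and 3 stand above the adenomas on the second.

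Scaling to equal counts of the 39 members other than Mki67 centres those members near 0 by construction, so it compares members with each other and gives no direction for the group. Mki67, which the scaling leaves out, was called lower on it, at -1.01 (adjusted p = 0.00178), beside 28.7% of all genes called lower. As shares of the summed CPM of the 39 other members, groups did not overlap for 14 of those 39. These are shares of 1 sum, in which a larger share of some members means a smaller share of others. The share was higher in every adenoma for 7, beside 9.22% of all genes so divided, and these were Cdk1, Mad2l1, Ndc80, Tpx2, Kif20a, Prc1 and Cdc20. It was lower in every adenoma for 7, beside 27.5% of all genes, and these were Ccna2, Nek2, Foxm1, Cenpa, Cenpe, Cdca8 and Kif23. Tpx2 took 2.68% to 3.08% of that sum in adenomas, against 1.87% to 2.07% in wild types, and Cenpe 2.10% to 2.53% in adenomas, against 3.07% to 3.47% in wild types. Adenoma 2 and wild type 1 lie with their own groups in these 14 shares by definition, since the 14 were picked for groups that did not overlap.

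Other mitotic genes, taken from lists written with earlier results of these data known, moved in both directions, and their counts stand beside the same background as those of the members. Of 17 genes of the anaphase-promoting complex and its regulators, 9 were called higher and 1 lower, beside the 30.3% higher and 27.8% lower of all genes. Their median of 0.39 on the log2 scale lay near that of the members. Anapc4 (0.85), Cdc16 (0.79) and Anapc16 (0.71), all subunits, had adjusted p of 7e-05, 0.000131 and 0.000229, while Anapc1, its largest subunit, was at -0.27 (adjusted p = 0.0281). Of 30 further kinetochore genes, 8 were higher and 3 lower, with a median of 0.25. Bub3, the checkpoint partner of Bub1 and BubR1, was at 0.68 (adjusted p = 0.000723), Zwint at 0.52 (adjusted p = 0.00579) and Cenpm at 1.04 (adjusted p = 0.0109), while Knl1, the kinetochore scaffold that recruits Bub proteins, was at -0.47 (adjusted p = 0.0231). Of 17 tested genes of G2/M control, 6 were higher and 1 lower, median 0.39. Arpp19 at 0.79 (adjusted p = 0.000249) and its kinase Mastl at 0.77 (adjusted p = 0.000582) restrain the phosphatase PP2A in mitosis, and Cks1b, a Cdk-binding subunit, was at 1.23 (adjusted p = 0.00527). Ensa, the close relative of Arpp19, was at -0.27 (adjusted p = 0.0425).

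The counts of the lists that follow also stand beside 30.3% of all genes called higher and 27.8% called lower. Condensin, cohesin and separase genes had 4 higher and 5 lower of 20, not above those shares, and a median of 0.13. Ncaph, a condensin I subunit, was at 0.58 (adjusted p = 0.0044), and the cohesin genes Stag1 and Pds5b were at -0.39 (adjusted p = 0.00269) and -0.57 (adjusted p = 0.00438). Mitotic kinesins and centrosome genes had 5 higher and 5 lower of 20, again not above those shares, and a median of 0.18. Ckap2, a spindle protein related to Ckap2l, was at 0.81 (adjusted p = 0.00796), while the centriole gene Cenpj was at -0.75 (adjusted p = 0.0011) and the centrosome gene Cep192 at -0.43 (adjusted p = 0.00534). The E2F, Rb and MuvB factors that regulate these promoters had a negative median, -0.29, with 4 of 19 higher and 5 lower. Rb1, the retinoblastoma protein, averaged 40.2 ± 4.44 CPM in adenomas (SD, n = 5) and 101.4 ± 10.7 CPM in wild types (n = 3), a log2 fold change of -1.33 (adjusted p = 4.08e-05). E2f8, a repressor of E2F targets, was at -1.24 (adjusted p = 0.000954), and Rbbp4, the histone-binding MuvB subunit, at 0.58 (adjusted p = 0.000345). Of 28 S phase genes, 7 were higher and none lower by edgeR, DESeq2 or limma-voom (0 lower at an unadjusted p under 0.05 in edgeR), with a median of 0.27, led by the clamp loader subunit Rfc3 at 0.90 (adjusted p = 0.00058), Gins4 at 0.57 (adjusted p = 0.00231) and the sliding clamp Pcna at 0.59 (adjusted p = 0.00458). Of the S phase genes 13 were called higher without adenoma 2, beside 34% of all genes, and 7 with it, beside 30.3%.

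Markers of other cells moved with the groups beside these results. Their counts stand beside 30.3% of all genes called higher and 27.8% called lower. Of 10 enterocyte markers 5 were called lower, with sums of 106.7 to 13305 CPM in adenomas and 22238 to 34008 CPM in wild types. The only one with a positive log2 fold change was Alpi, at 1.19 and not called (edgeR adjusted p = 0.422). Alpi had 7.84 CPM in adenoma 2 and 1024 to 2377 CPM in the other adenomas, against 355 to 751 CPM in wild types. Of 8 smooth muscle markers 4 were called lower, with sums of 416 to 1049 CPM in adenomas and 936 to 1705 CPM in wild types. Of 6 T cell markers 5 were called lower, summing to 9.44 to 17.0 CPM in adenomas and 42.7 to 49.3 CPM in wild types. Of 5 tested B cell markers 2 were called lower, and all 6 in the list summed to 9.55 to 13.7 CPM in adenomas and 12.3 to 145.1 CPM in wild types, with Pax5 at 0 in adenoma 4. Of 6 crypt-base stem markers 5 were called higher, and all 6 summed to 488 to 671 CPM in adenomas and 438 to 485 CPM in wild types. The remaining stem marker, Olfm4, was at -1.80 and not called (edgeR adjusted p = 0.182), though every adenoma lay below every wild type. Of 7 myeloid markers 2 were higher and 1 lower, with sums of 154 to 302 CPM in adenomas and 214 to 234 CPM in wild types. The 7 tested pancreas markers had adjusted p of 0.428 to 0.949, and their sums are given with the libraries. The part of these cells in the values of the members was not tested. Wild type 1, with the highest B cell sum, had the lowest summed members of all 8 libraries.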

How the data were processed

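Total RNA of 8 libraries was prepared with the TruSeq RNA kit v2, which does not keep strand, and sequenced as paired reads, per the labels' protocols. The deposited table holds raw counts per Ensembl gene, made by the authors with FastQC, TopHat2 and HTSeq on GRCm38, per the submitters' processing notes. For tool versions, annotation release and strand setting: not given in the sources used here. Every count column was assigned to a sample. Symbols came from the GENCODE annotation, and no pair of libraries was identical.

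Counts were tested with edgeR 4.0.16 (R 4.3.3): TMM scaling, a filter on low counts by group, robust quasi-likelihood fits of adenoma over wild type without covariates, and Benjamini-Hochberg adjustment over the 18345 genes tested, called at 0.05. Log2 CPM used a prior count of 2. The code was tested on simulated data. DESeq2 1.42.0 and limma-voom 3.58.1, other scalings, filters, left-out libraries, a replicate block and a sex covariate were tried as alternatives. All 40 members are named, with up to 3 genes of each other list by smallest adjusted p and 1 in the minority direction. The B cell marker list was shortened after the data were seen, as some items are not reported here. The members and lists were chosen with earlier results of these data known.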

Additional observations from a re-analysis of the deposited data

Results flagged for a closer look

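For 4 of the 40 members, 1 library stood far from the other adenomas. The gap between the lowest adenoma and the next, divided by the whole range of the 5 adenomas, was 0.918 for Mki67, 0.767 for Kif23, 0.74 for Top2a and 0.726 for Foxm1, each above Dixon's critical value of 0.71. The low library was adenoma 2 in all 4. Chance flags about 1 in 20 such groups, and 40 were examined. The 40 groups share their libraries and are not independent. Adenoma 2 also had the Hoxb13, Gata4 and enterocyte marker levels given in the report, whose part in these gaps was not tested.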

How the results depend on the processing

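With all 8 libraries in the fit, the members called higher numbered 14 and the median log2 fold change of the members was 0.40. Pan-epithelial scaling gave 0 higher and 13 lower with a median of -0.378, and turned 30 of the 37 positive values negative: Ccna2 (-0.57), Ccnb1 (-0.20), Ccnb2 (-0.23), Aurka (-0.43), Nek2 (-0.65), Melk (-0.43), Bub1 (-0.43), Bub1b (-0.23), Ttk (-0.31), Cenpa (-0.63), Cenpf (-0.66), Nuf2 (-0.44), Aurkb (-0.39), Birc5 (-0.55), Incenp (-0.55), Cdca8 (-0.62), Kif11 (-0.58), Nusap1 (-0.12), Hmmr (-0.34), Ckap2l (-0.20), Kif23 (-0.71), Prc1 (-0.092), Anln (-0.18), Ect2 (-0.58), Racgap1 (-0.18), Cdc20 (-0.050), Ube2c (-0.37), Pttg1 (-0.58), Cdca3 (-0.13) and Top2a (-0.46). Mki67 was at -1.37 there. Of these 11 genes, 8 were themselves called higher in adenomas. A replicate block gave 0 higher and 0 lower in edgeR, with 5 higher and 1 lower at an unadjusted p under 0.05, a median of 0.30, and 18.2% of all genes called higher. Kif23 turned to -0.024. Only 3 numbers are shared between groups, and same-numbered libraries correlated at -0.0182, 0.0513 and 0.0612. Adenomas 2 and 3 correlated best with the wild type of their own number, and adenoma 1 with wild type 2, at 0.0324. Correlations so near 0 cannot decide whether same-numbered libraries share a block, and the labels name none. The sex covariate gave 2 higher and 0 lower, with 9 higher and 0 lower at an unadjusted p under 0.05 and a median of 0.41. Leaving out wild type 1 and adenoma 5 gave 3 higher and turned Nek2 (-0.12), Cenpf (-0.11), Incenp (-0.014), Cdca8 (-0.049), Kif23 (-0.16) and Ect2 (-0.046) negative. Upper-quartile scaling turned Cenpf (-0.0063) and Kif23 (-0.017), and the filter at 5 CPM turned the same genes (-0.030 and -0.039). Leaving out 1 library gave 7 to 25 higher, 1 to 2 lower and medians of 0.23 to 0.59. Single members that changed sign there ranged from -0.093 to 0.25 (Nek2), -0.47 to 0.0052 (Foxm1), -0.00044 to 0.26 (Cenpa), -0.099 to 0.20 (Cenpf), -0.0040 to 0.39 (Incenp), -0.040 to 0.35 (Cdca8), -0.14 to 0.22 (Kif23) and -0.060 to 0.36 (Ect2). The count was 9 without adenoma 1 or adenoma 4, 25 without adenoma 2, 7 (and 2 lower) without wild type 1 and 8 without wild type 3. Of alternatives chosen after seeing the data, leaving out wild type 1 and adenoma 2 gave 3 lower and turned Cenpf (-0.081) and Kif23 (-0.024). Scaling to the 39 members other than Mki67 gave 0 higher (2 higher and 3 lower at an unadjusted p under 0.05). Its median of -0.0066 is near 0 by construction, since that scaling centres the members, and 17 values were turned negative: Ccna2 (-0.19), Aurka (-0.056), Nek2 (-0.27), Melk (-0.073), Bub1 (-0.028), Cenpa (-0.27), Cenpf (-0.29), Nuf2 (-0.052), Aurkb (-0.024), Birc5 (-0.20), Incenp (-0.16), Cdca8 (-0.24), Kif11 (-0.24), Kif23 (-0.32), Ect2 (-0.18), Pttg1 (-0.28) and Top2a (-0.087). Scaling to S phase genes gave 6 higher and 2 lower and turned Ccna2 (-0.070), Nek2 (-0.16), Cenpa (-0.15), Cenpf (-0.18), Birc5 (-0.067), Incenp (-0.048), Cdca8 (-0.12), Kif11 (-0.10), Kif23 (-0.21), Ect2 (-0.072) and Pttg1 (-0.14). The cause of the other changes was not tested. The count of members called higher was 11 to 17 under the other scalings and filters, DESeq2 (15) and limma-voom (13). The median of the members lay 0.18 to 0.54 above that of all genes in every setting listed. Of 920 single-member values under alternatives, 710 kept direction and side of the threshold and 79 turned sign. In all, 109 lost their call and 39 gained one. Every member had at least 117 counts in each library, and precision rests on the number of libraries, with 3 wild types of which 1 was low for 38 members.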
